A study of Rattus norvegicus with 13 samples.

Results

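Expression of 39 hypoxia response and glycolysis genes was followed across rat bile duct cancer (intrahepatic cholangiocarcinoma) and cell lines taken from it. The genes were given as a list of symbols, targets and regulators of the hypoxia-inducible factor (HIF) and enzymes and transporters of glycolysis. No rule on measured values picked them, but the list was chosen with earlier results of these data known. All 39 were among the 14217 genes measured, and each was read through 1 probe set. For the 15 genes with several probe sets, this was the brightest on average over the 13 arrays.

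The series asked how tumour-derived cancer cells and the fibroblasts of the tumour differ, alone and together, in a gel culture. BDEsp cells, cholangiocytes of a Fischer 344 rat line that had transformed spontaneously to low malignancy, were placed in the bile ducts of rats and gave rise to tumours. 4 tumours from young adult male Fischer 344 rats, frozen as whole tissue, were each put on 1 array. The epithelial line (clone H10) was the cancer cell line of such tumours and gave 3 arrays grown alone. The fibroblastic line (clone E4), positive for alpha smooth muscle actin, gave 4 arrays grown alone. Both lines share the Fischer 344 background, each is a single clone, and both grew within type I collagen gel made from rat tail. 1 array was labelled as epithelial cells grown with the fibroblastic cells, and 1 as fibroblastic cells grown with the epithelial cells. The ratio of the lines varied between co-cultures by the protocol, and the labels do not give the ratio behind each co-culture array. Nor do they say whether the arrays of a line came from separate cultures, so p-values measure the spread between these arrays.

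HIF is a transcription factor made of an oxygen-sensitive alpha subunit and a stable partner. Prolyl hydroxylases mark the alpha subunit for destruction while oxygen is plentiful, and when oxygen is short the factor binds short DNA elements in genes for glucose uptake, glycolysis, lactate export, acid handling and mitochondrial turnover. Many tumours run glycolysis even in the presence of oxygen, so these genes can also be high without hypoxia.

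Many of these genes were higher in co-culture than in either line grown alone. The co-culture array labelled epithelial was above all 7 arrays of the lines grown alone in 25 of the 39 genes, against 10.2% of all genes. For the array labelled fibroblastic this held in 23 genes, against 9.15% of all genes. Both were above all 7 in 20 genes, against 5.8% of all genes, and no gene of the 39 was below all 7 on both arrays (8.85% of all genes). The 20 were the oxygen sensors Egln1 and Egln3, Ankrd37, the mitophagy receptor Bnip3, the transporters Slc2a1, Slc2a3 and Slc16a3, the glycolytic enzymes Gpi, Pfkp, Aldoa, Tpi1, Pgk1, Eno1, Eno2 and Ldha, the kinase Pdk1, the collagen prolyl hydroxylases P4ha1 and P4ha2, carbonic anhydrase Car9 and the peptide hormone Adm. By role they made up 4 of the 4 genes for matrix, acid handling and secretion, 5 of 7 in lower glycolysis, 3 of 4 in transport and 4 of 11 in upper glycolysis. They also held 2 of 4 oxygen sensing genes, 1 of 4 transcription and chromatin genes and 1 of 5 genes for mitochondria and growth restraint. The count was 20 or 21 in the other settings tried, except 23 with the probe sets of a gene averaged and 28 without epithelial array 2 (6.88% of all genes).

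**Figure D1:**
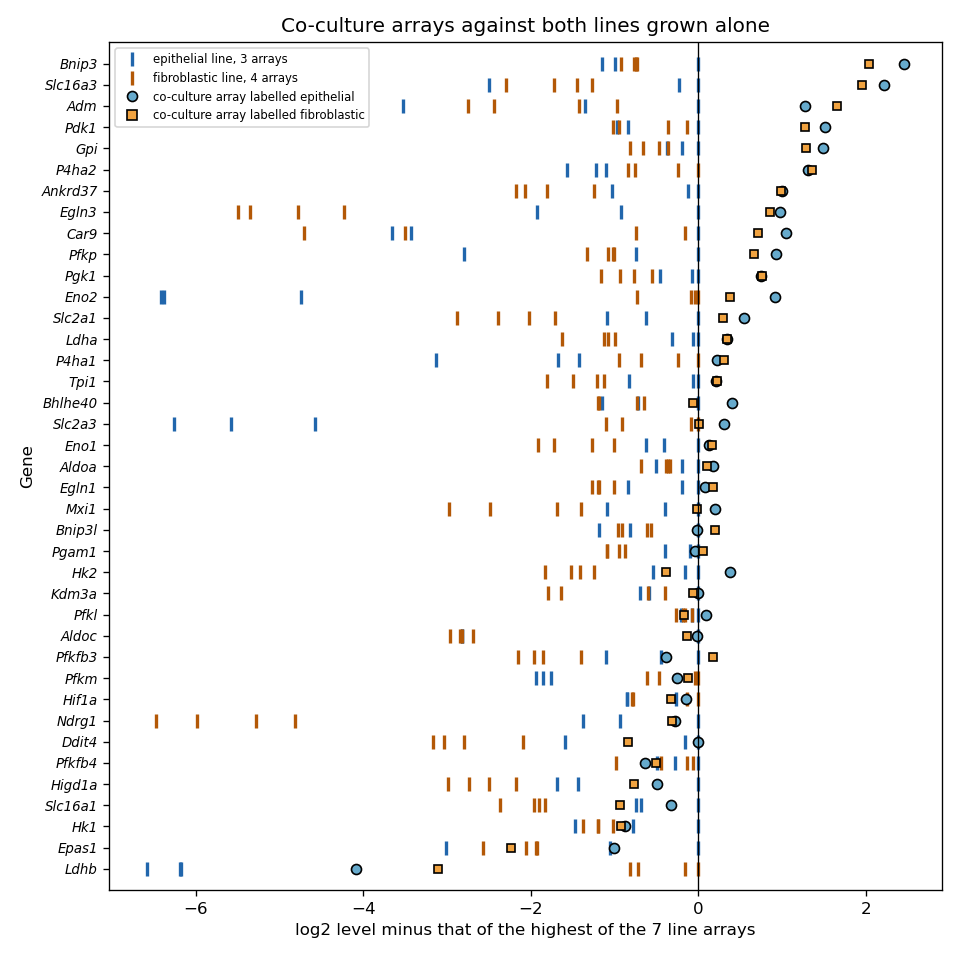
Each row is a gene, and the horizontal axis is its log2 level minus that of the highest of the 7 line arrays, marked by the line at 0. Ticks are single line arrays and filled symbols are the co-culture arrays. Both symbols lie right of 0 in 20 of 39 genes, furthest for Bnip3 (2.46 and 2.04) and Slc16a3 (2.22 and 1.95), while Slc2a3 (0.31 and 0.01) lies only just beyond, and Ldhb lies between the lines.

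Both co-culture arrays held markers of both lines, so they are named here by their labels. The array labelled epithelial held a mean of 9.80 over 10 fibroblast markers (4.90 to 5.07 in the epithelial line, 11.90 to 12.10 in the fibroblastic line), with Col1a2 at 13.37. The array labelled fibroblastic held a mean of 11.85 over 10 epithelial markers (4.50 to 4.89 in the fibroblastic line, 12.28 to 12.79 in the epithelial line), with Krt19 at 13.21. Mgp, a fibroblast marker at 13.44 to 14.15 in the fibroblastic line, read 4.52 and 5.25 on the co-culture arrays. The co-culture arrays resembled each other about as closely as arrays of a line did, with a standard deviation of 0.415 log2 units between them over all genes against 0.325 to 0.753 between arrays of a line. Macrophage, endothelial, lymphocyte and hepatocyte markers stayed near the levels of the lines in co-culture. Markers of other cell types were high in tumours. The mean of 10 hepatocyte markers was 13.46, 5.69, 11.94 and 13.53 in tumours 1 to 4, against 4.71 to 5.14 in the lines, and macrophage markers averaged 9.72 to 10.16 against 4.61 to 5.02. In such bulk samples fewer cells of a type and less RNA per cell cannot be told apart. The actin control probes at the 3' end of the transcript exceeded those at the 5' end, a sign of RNA quality, by a log2 difference of 0.606 to 0.752 in tumours, 0.856 to 1.469 in the epithelial line, 1.045 to 2.648 in the fibroblastic line and 0.962 and 0.848 in co-culture. The part of these features in the results was not tested.

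Differences between groups, the first group named minus the second, were tested with limma and called at a Benjamini-Hochberg adjusted p under 0.05 over all 14217 genes, on log2 values where a difference of 1 is 2-fold. Against the fibroblastic line, the epithelial line was higher in 16 of the 39 genes (20.9% of all genes) and lower in 6 (16.6% of all genes), with a median difference of 0.67 (0.11 over all genes). The 22 called genes compare with 37.4% of all genes called either way. The 16 and the 6 were also the genes whose arrays did not overlap, a property of 26% and 19.2% of all genes. Tumours were higher than the epithelial line in 5 genes (18.9% of all genes) and lower in 9 (33.2%), with the median at -0.17, the same as over all genes. That split depended on the scaling, since a further quantile normalization gave 9 higher and 6 lower, and centring arrays on their medians gave 6 higher and 7 lower and moved the median of all genes to 0.03. In either direction 14 genes were called, against 52.1% of all genes. Every tumour lay above every epithelial array in 5 genes (21.3% of all genes) and below in 9 (37%). Tumours were higher than the fibroblastic line in 16 genes (27.3% of all genes) and lower in 7 (33.5%), with a median of 0.41 (-0.07 over all genes, 0.12 after centring). The 23 genes called in either direction compare with 60.9% of all genes. Every tumour lay above every fibroblastic array in 17 genes (26.2% of all genes) and below in 7 (32%).

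The co-culture array labelled epithelial was higher than the epithelial line in 8 genes (4.87% of all genes) and lower in 0 (2.37% of all genes, and 7.24% in either direction), with a median of 0.70 (-0.09 over all genes). At an unadjusted p under 0.05 limma passed 16 genes, none of them among the 2 with a negative difference, Hk1 and Pfkfb4. The array labelled fibroblastic was higher than the fibroblastic line in 16 genes (4.78% of all genes) and lower in 1 (3.63%, and 8.41% in either direction), with a median of 1.62 (0.03 over all genes). Each of these compares 1 array with a line and assumes that the lone array varies like the replicated groups. Each array also held markers of the other line. Many genes called on the array labelled fibroblastic, such as Egln3, Ndrg1, Slc2a1 and Ldha, were also higher in the epithelial line alone. Eno2, Slc2a3, Pfkm, Ldhb and P4ha2, called on the array labelled epithelial, were higher in the fibroblastic line alone. For such genes a change within cells and the mixture of cells cannot be told apart. Bnip3, Gpi and Pdk1 were called on both arrays and not between the lines. The count of 17 called genes against the fibroblastic line fell to 11 without fibroblastic array 2 and to 10 without fibroblastic array 4. With both co-culture arrays taken as 1 group, a fit added after the data were seen, 14 genes were higher than the epithelial line (8.75% of all genes) and 0 lower (9.62%). The same group was higher than the fibroblastic line in 24 genes (9.53% of all genes) and lower in 1 (10.5%). This fit takes 2 arrays with different labels as replicates, which the labels do not state, and its calls below carry that limit.

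**Figure D2:**
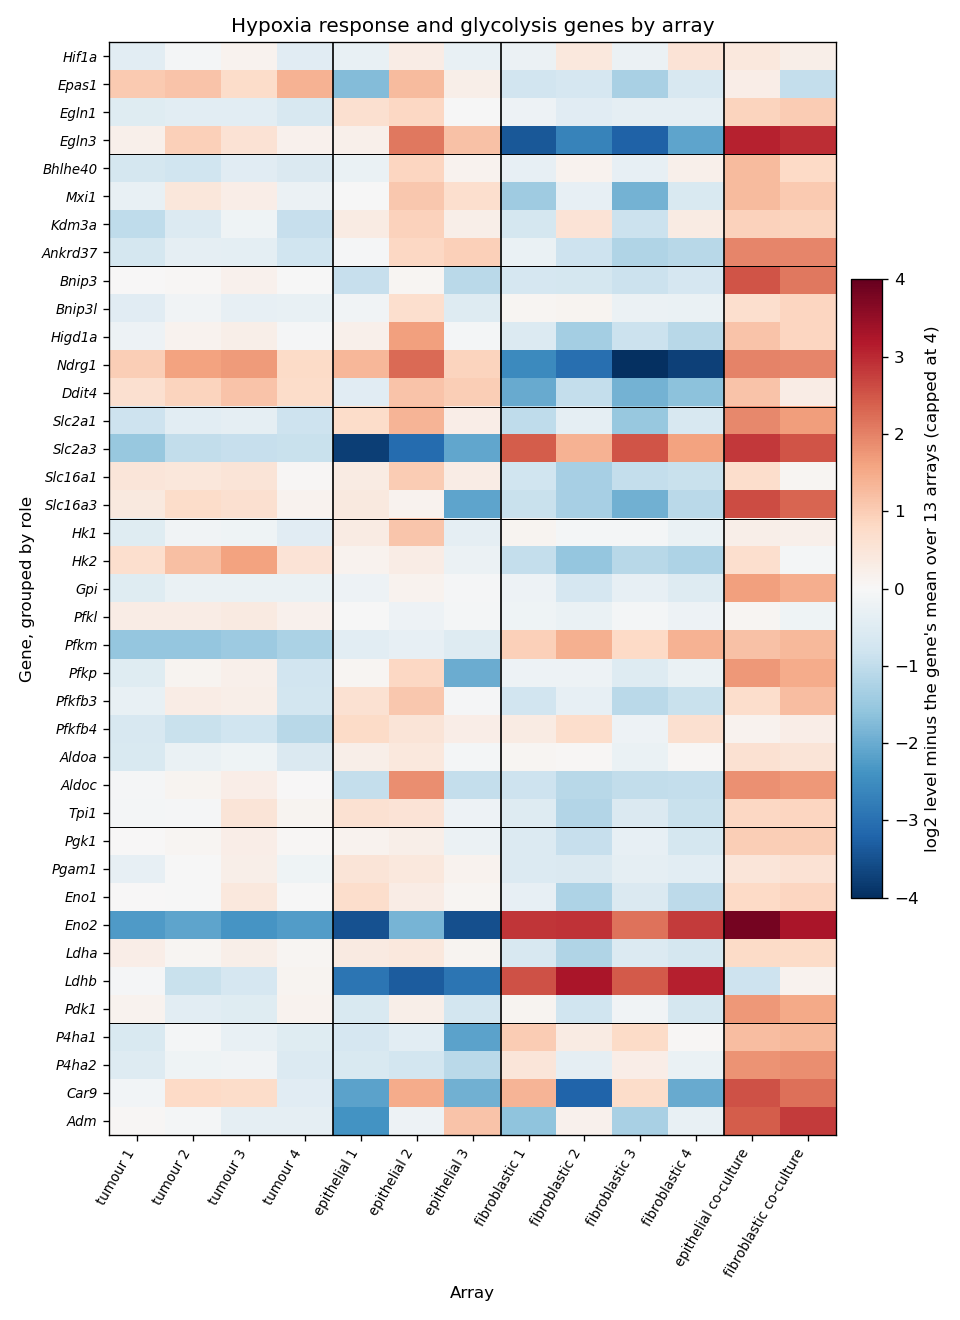
Rows are the 39 genes ordered by role and columns are the 13 arrays. Colour is the log2 level minus the mean of the gene over all arrays, capped at 4. The 2 co-culture columns are red in most rows, and Slc2a3, Pfkm, Eno2 and Ldhb are red in the fibroblastic line and blue in the epithelial line.

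HIF binds a short core, written ACGTG or GCGTG on either strand. Promoters, taken as the 250 bases before the RefSeq start site in the rat build GRCr8, were found for 35 of the 39 genes and not for Bnip3l, Ndrg1, Slc2a3 and Pgk1. At least 1 core stood in 23 of the 35 (65.7%), against 12284 of all 33469 promoters of the build (36.7%). Those promoters were not limited to the 14217 measured genes and were not matched for base content. Of the 20 genes above both lines in co-culture, 18 had a promoter and 11 of those held a core (61.1%), against 12 of 17 among the other genes (70.6%). Promoters of 5 of the 20 genes are shown because they held 4 or more cores, a choice made after the values were seen. Cores on either strand are in capitals, the sequence ends just before the start site, and a palindrome counts on both strands. They lie at chr1:203154963-203155212, minus strand for Bnip3, chr16:53001257-53001506, plus strand for Ankrd37, chr1:106507842-106508091, plus strand for Ldha, chr5:138002272-138002521, plus strand for Slc2a1, and chr10:38743644-38743893, plus strand for P4ha2. A core is a match of letters, and its binding was not measured here.
Bnip3: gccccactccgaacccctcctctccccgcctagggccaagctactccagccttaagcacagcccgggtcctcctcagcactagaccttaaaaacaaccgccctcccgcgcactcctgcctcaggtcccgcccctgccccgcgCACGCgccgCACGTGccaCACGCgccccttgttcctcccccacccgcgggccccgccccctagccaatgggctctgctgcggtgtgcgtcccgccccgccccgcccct
Ankrd37: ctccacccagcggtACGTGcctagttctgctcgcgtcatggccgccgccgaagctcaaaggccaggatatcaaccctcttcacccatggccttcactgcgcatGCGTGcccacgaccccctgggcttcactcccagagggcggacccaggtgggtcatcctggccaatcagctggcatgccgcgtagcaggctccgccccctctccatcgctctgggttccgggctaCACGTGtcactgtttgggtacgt
Ldha: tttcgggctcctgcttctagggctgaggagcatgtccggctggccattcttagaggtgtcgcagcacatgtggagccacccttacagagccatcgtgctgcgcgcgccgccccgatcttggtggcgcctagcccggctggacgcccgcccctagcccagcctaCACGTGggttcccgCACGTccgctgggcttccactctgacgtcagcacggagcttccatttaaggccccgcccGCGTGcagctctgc
Slc2a1: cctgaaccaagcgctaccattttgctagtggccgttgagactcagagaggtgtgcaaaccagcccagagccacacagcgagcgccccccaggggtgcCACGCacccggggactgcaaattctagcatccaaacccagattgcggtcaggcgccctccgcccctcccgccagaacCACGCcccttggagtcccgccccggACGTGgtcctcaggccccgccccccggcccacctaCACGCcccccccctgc
P4ha2: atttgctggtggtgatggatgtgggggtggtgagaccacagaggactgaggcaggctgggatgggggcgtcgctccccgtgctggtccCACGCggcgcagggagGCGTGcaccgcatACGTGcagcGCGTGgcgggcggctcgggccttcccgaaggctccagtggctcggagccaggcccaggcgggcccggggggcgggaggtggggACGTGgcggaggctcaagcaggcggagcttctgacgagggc

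Array values below are log2 levels in the order of the array numbers, and for co-culture the array labelled epithelial comes first. Levels of different genes come from different probes and are not compared. The deposited values carry no detection call. Hepatocyte markers averaged 4.95, 5.14 and 5.06 on the epithelial arrays and macrophage markers 4.84, 4.98 and 5.02, and no fold is given against a group whose readings lie about there, since the size of such a difference is at most a lower bound.

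Among the oxygen sensors and HIF subunits, the prolyl hydroxylase gene Egln3 separated the lines and the subunits did not. Hif1a, the main oxygen-regulated alpha subunit, read 10.82, 11.17, 11.38 and 10.79 in tumours, 10.95, 11.53 and 10.95 in the epithelial line, 11.01, 11.66, 11.03 and 11.80 in the fibroblastic line and 11.66 and 11.47 in co-culture. The tumours and lines overlapped, and fibroblastic array 4 was the highest of all arrays. None of its differences was called, the largest being 0.51 for the array labelled epithelial (SE 0.40, adjusted p = 0.528). Hif1a protein is controlled mainly by destruction, which these arrays do not read.

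Epas1 encodes the alpha subunit HIF-2. It read 9.19, 9.31, 8.87 and 9.53 in tumours, 6.42, 9.43 and 8.38 in the epithelial line, 7.38, 7.49, 6.86 and 7.51 in the fibroblastic line and 8.42 and 7.19 in co-culture. Every tumour was above every fibroblastic array (log2 difference 1.92, SE 0.50, adjusted p = 0.0071), and epithelial array 1 was the lowest of all 13. Against the epithelial line the tumours were not called (log2 difference 1.15, SE 0.54, adjusted p = 0.097), but they were without epithelial array 2 (adjusted p = 0.0096). Without epithelial array 1 the lines differed too (adjusted p = 0.0114).

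Egln3, a prolyl hydroxylase that is itself a HIF target, read 8.79, 10.71 and 9.78 in the epithelial line and 5.21, 5.93, 5.35 and 6.48 in the fibroblastic line. The lines did not overlap (log2 difference 4.01, SE 0.47, adjusted p = 0.000357), and the lower fibroblastic readings were not far above those of absent cell types' markers. Tumours read 8.79, 9.55, 9.17 and 8.77, all above the fibroblastic line (log2 difference 3.32, SE 0.40, adjusted p = 4.79e-05) and overlapping the epithelial line. The co-culture arrays read 11.68 and 11.56, above every other array. The array labelled fibroblastic was above the fibroblastic line (log2 difference 5.82, SE 0.69, adjusted p = 0.00198), while the array labelled epithelial was not called against the epithelial line (log2 difference 1.93, SE 0.72, adjusted p = 0.158) unless both co-culture arrays formed 1 group (adjusted p = 0.0407).

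Egln1, the prolyl hydroxylase that sets HIF levels in most cells, read 8.33, 8.40, 8.40 and 8.17 in tumours, 9.45, 9.64 and 8.79 in the epithelial line, 8.63, 8.37, 8.45 and 8.44 in the fibroblastic line and 9.71 and 9.82 in co-culture. Tumours were lower than the epithelial line with no overlap (log2 difference -0.97, SE 0.18, adjusted p = 0.00149), although its second probe set gave 0.16. The lines differed (log2 difference 0.82, SE 0.21, adjusted p = 0.0174), a call lost without epithelial array 1 or 2 (adjusted p = 0.0622 and 0.0618). Against its line, the array labelled fibroblastic was higher (log2 difference 1.34, SE 0.31, adjusted p = 0.0373), a call lost without epithelial array 1 or without any 1 fibroblastic array (adjusted p up to 0.0775), or with probe sets averaged (adjusted p = 0.111).

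Of the transcription and chromatin genes, Ankrd37, a HIF target that encodes an ankyrin repeat protein, was called in 3 comparisons. It read 6.83, 7.17, 7.13 and 6.73 in tumours, 7.47, 8.37 and 8.49 in the epithelial line, 7.25, 6.69, 6.32 and 6.43 in the fibroblastic line and 9.49 and 9.48 in co-culture. The epithelial line was above both the fibroblastic line (log2 difference 1.44, SE 0.31, adjusted p = 0.00821) and the tumours (log2 difference -1.15, SE 0.28, adjusted p = 0.00651) with no overlap. Both co-culture arrays were above all others, and the array labelled fibroblastic was called (log2 difference 2.80, SE 0.46, adjusted p = 0.00859).

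Mxi1, a MYC antagonist, read 9.50, 10.26, 10.07 and 9.57 in tumours, 9.79, 10.88 and 10.49 in the epithelial line, 8.39, 9.49, 7.90 and 9.19 in the fibroblastic line and 11.08 and 10.87 in co-culture. It was higher in the epithelial than in the fibroblastic line with no overlap (log2 difference 1.64, SE 0.42, adjusted p = 0.0163), a call lost without epithelial array 2 or 3 (adjusted p = 0.0632 and 0.0554). Kdm3a, a histone demethylase, read 7.99, 8.46, 8.82 and 8.09 in tumours, 9.34, 9.93 and 9.24 in the epithelial line, 8.30, 9.54, 8.14 and 9.34 in the fibroblastic line and 9.93 and 9.88 in co-culture. Tumours were below the epithelial line with no overlap (log2 difference -1.16, SE 0.36, adjusted p = 0.0202), but not after quantile normalization (adjusted p = 0.0989) or without tumour 1, tumour 4 or epithelial array 2 (0.0543, 0.0506 and 0.0809). In the fibroblastic line both genes were higher on arrays 2 and 4 than on arrays 1 and 3. The same pairs stood out over all genes. The standard deviation was 0.325 between arrays 2 and 4, 0.378 between arrays 1 and 3, and 0.641 to 0.753 across pairs. Actin probe differences were 2.648 and 2.007 on arrays 2 and 4, and 1.716 and 1.045 on arrays 1 and 3. Tests against this line took its arrays as separate, which the labels do not state. Bhlhe40, a clock-linked repressor, averaged 9.07 ± 0.15 in tumours (SD, n = 4), below every culture, with the difference from the epithelial line called (log2 difference -0.88, SE 0.25, adjusted p = 0.0131) and lost after quantile normalization (adjusted p = 0.135).

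Among the genes for mitochondria and growth restraint, Bnip3 was called higher in both co-culture comparisons. Bnip3 marks mitochondria for removal, and it read 10.06, 10.08, 10.19 and 10.00 in tumours, 9.10, 10.09 and 8.95 in the epithelial line, 9.34, 9.32, 9.16 and 9.36 in the fibroblastic line and 12.55 and 12.13 in co-culture. Both co-culture arrays were far above all others, by 9.01-fold over the epithelial line (log2 difference 3.17, SE 0.41, adjusted p = 0.00277) and 7.13-fold over the fibroblastic line (log2 difference 2.83, SE 0.39, adjusted p = 0.00401). Tumours were tightly grouped and above the fibroblastic line (log2 difference 0.79, SE 0.21, adjusted p = 0.0086). They overlapped epithelial array 2, and the call against that line (log2 difference 0.70, SE 0.23, adjusted p = 0.0253) was lost without tumour 3, epithelial array 1 or epithelial array 3 (adjusted p = 0.0553, 0.102 and 0.105). The related Bnip3l moved less and was called in no comparison, with differences of 0.65 and 0.96 in co-culture.

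Ndrg1, a stress-responsive gene linked to differentiation, read 11.50, 12.14, 12.22 and 11.30 in tumours, 11.85, 12.78 and 11.41 in the epithelial line, 7.97, 7.50, 6.30 and 6.79 in the fibroblastic line and 12.50 and 12.47 in co-culture. The fibroblastic line lay far below all other arrays, 29.2-fold under the epithelial line (log2 difference 4.87, SE 0.45, adjusted p = 9.18e-05) and 25-fold under the tumours (log2 difference 4.65, SE 0.40, adjusted p = 4.19e-06). The co-culture arrays lay inside the range of the epithelial line, so that the array labelled fibroblastic was higher than its line (log2 difference 5.32, SE 0.67, adjusted p = 0.00249) and the other was not called (log2 difference 0.49, SE 0.69, adjusted p = 0.77). The second probe set gave smaller differences of the same sign, 2.65 between the lines and 2.86 for the array labelled fibroblastic.

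Ddit4, an inhibitor of mTOR signalling under stress, read 9.60, 9.87, 10.11 and 9.70 in tumours, 8.52, 10.11 and 9.95 in the epithelial line, 6.95, 8.01, 7.08 and 7.32 in the fibroblastic line and 10.11 and 9.27 in co-culture. The fibroblastic line was the lowest group, below the epithelial line (log2 difference 2.19, SE 0.42, adjusted p = 0.00447) and the tumours (log2 difference 2.48, SE 0.34, adjusted p = 0.000128) with no overlap. Higd1a, a small mitochondrial protein, averaged 11.98 ± 0.91 in the epithelial line (SD, n = 3) and 10.42 ± 0.35 in the fibroblastic line (SD, n = 4). That difference was called (log2 difference 1.56, SE 0.40, adjusted p = 0.0173) but its second probe set gave -0.16, and it was lost with probe sets averaged (adjusted p = 0.185). Tumours were above the fibroblastic line too (log2 difference 1.00, SE 0.33, adjusted p = 0.0217), again with the second probe set opposite (-0.83).

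The glucose transporters divided the lines in opposite directions. Slc2a1, the widely expressed glucose importer GLUT-1, read 10.95, 11.57 and 10.48 in the epithelial line and 9.18, 9.85, 8.69 and 9.55 in the fibroblastic line, higher in the epithelial line with no overlap (log2 difference 1.68, SE 0.34, adjusted p = 0.00546). Slc2a3, the high-affinity importer GLUT-3, read 3.60, 4.27 and 5.29 in the epithelial line and 9.77, 8.76, 9.86 and 8.95 in the fibroblastic line, higher in the fibroblastic line (log2 difference -4.95, SE 0.43, adjusted p = 6.51e-05). The epithelial readings were about as low as those of the absent cell types' markers, and the second probe set gave a difference of only -0.41. In tumours Slc2a1 read 9.39, 9.79, 9.83 and 9.37, below every epithelial array (log2 difference -1.40, SE 0.30, adjusted p = 0.00332) and overlapping the fibroblastic line. Tumour levels of Slc2a3 were 5.83, 6.38, 6.42 and 6.47, between the lines with no overlap on either side (log2 difference 1.89, SE 0.39, adjusted p = 0.00264; against the fibroblastic line log2 difference -3.06, SE 0.36, adjusted p = 4.3e-05). The second probe set of Slc2a3 gave 0.56 for tumours against the fibroblastic line, so the direction there depended on the probe set.

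In co-culture both glucose transporters were above the higher line, Slc2a3 by little. Slc2a1 read 12.12 and 11.87, above every line array, and the array labelled fibroblastic was called against its line (log2 difference 2.55, SE 0.49, adjusted p = 0.0173). Slc2a3 read 10.17 and 9.86, level with or just above the fibroblastic line, and the array labelled epithelial was above the epithelial line (log2 difference 5.78, SE 0.66, adjusted p = 0.00142). The second probe set gave 1.05 for that difference, so its size was not shared by both.

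Slc16a3 encodes MCT4, the lactate exporter of glycolytic cells. It read 8.95, 9.29, 9.21 and 8.68 in tumours, 8.94, 8.71 and 6.44 in the epithelial line, 7.67, 7.22, 6.64 and 7.49 in the fibroblastic line and 11.15 and 10.89 in co-culture. The co-culture arrays were above all others, and epithelial array 3 was far below the other 2 of its line. The array labelled fibroblastic was called (log2 difference 3.64, SE 0.85, adjusted p = 0.039) and lost the call without epithelial array 2 or any 1 fibroblastic array (adjusted p up to 0.0696). The array labelled epithelial was not called (log2 difference 3.13, SE 0.88, adjusted p = 0.0766) but was without epithelial array 3 (adjusted p = 0.0258). Tumours were above the fibroblastic line (log2 difference 1.78, SE 0.48, adjusted p = 0.00804). Slc16a1, the lactate and pyruvate carrier MCT1, averaged 9.84 ± 0.41 in the epithelial line (SD, n = 3) against 8.30 ± 0.24 in the fibroblastic line (SD, n = 4), with no overlap (log2 difference 1.54, SE 0.23, adjusted p = 0.00119). Tumours were above the fibroblastic line as well (log2 difference 1.37, SE 0.19, adjusted p = 0.000151).

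**Figure D3:**
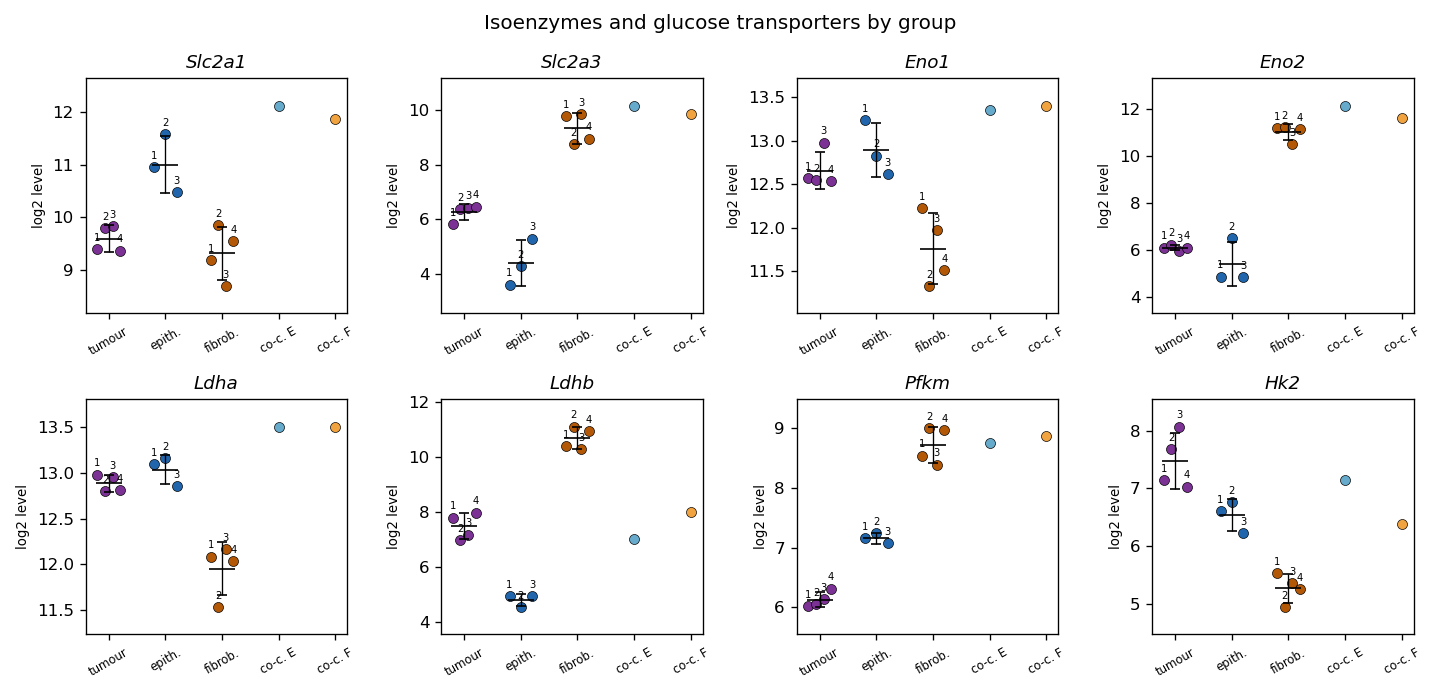
Each panel is a gene and each point an array, with log2 level on the vertical axis and groups on the horizontal axis (co-c. E and co-c. F are the co-culture arrays labelled epithelial and fibroblastic). Bars are the mean and 1 SD over 4 tumours, 3 epithelial and 4 fibroblastic arrays, and numbers are array numbers. Slc2a3, Eno2, Ldhb and Pfkm are higher in the fibroblastic line, their partners Slc2a1, Eno1 and Ldha are higher in the epithelial line, and the tumours read between 5.97 and 6.23 for Eno2.

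In upper glycolysis, from hexokinase to triose phosphate isomerase, every tumour was above both lines in 2 of 11 genes and below both in 2. Over all genes these properties held for 11.6% and 18.8%. Of the 39 genes, 2 were above and 3 below, under those shares. Hk2, the inducible hexokinase of many cancers, read 7.14, 7.68, 8.07 and 7.03 in tumours, 6.61, 6.77 and 6.23 in the epithelial line, 5.52, 4.93, 5.35 and 5.25 in the fibroblastic line and 7.14 and 6.39 in co-culture. Every tumour was above every array of both lines, by 1.93-fold over the epithelial line (log2 difference 0.95, SE 0.26, adjusted p = 0.0105) and by more over the low readings of the fibroblastic line (log2 difference 2.22, SE 0.24, adjusted p = 2.02e-05). Tumours 2 and 3 were the higher ones, and tumours 1 and 4 the lower. The hepatocyte marker means were 13.46, 5.69, 11.94 and 13.53 in tumours 1 to 4, and the part of hepatocyte RNA in Hk2 was not tested. Pfkl, the liver-type phosphofructokinase subunit, was also above both lines in tumours by small margins, 0.38 (adjusted p = 0.0116) and 0.46 (adjusted p = 0.00233). Over all genes, 11.6% had every tumour above every line array.

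Below both lines in every tumour were Bhlhe40, Pfkm and Pfkfb4, a property of 18.8% of all genes. Pfkm, the muscle-type phosphofructokinase subunit, read 6.02, 6.05, 6.13 and 6.31 in tumours, 7.15, 7.25 and 7.07 in the epithelial line, 8.54, 9.00, 8.39 and 8.97 in the fibroblastic line and 8.76 and 8.88 in co-culture. The groups formed 3 separate levels, with the tumours 6.05-fold under the fibroblastic line (log2 difference -2.60, SE 0.15, adjusted p = 2.88e-07), the epithelial line 2.96-fold under it (log2 difference -1.57, SE 0.19, adjusted p = 0.000405), and co-culture near its level. Its other probe sets gave -0.27 and 0.65 for tumours against the fibroblastic line, and 0.16 and -0.08 between the lines. The sizes above therefore rest on 1 of 3 probe sets. For the array labelled fibroblastic against its line the others gave 1.24 and 0.08, where the probe set used gave 0.15. Against the epithelial line the tumours were lower (log2 difference -1.03, SE 0.16, adjusted p = 0.000592), but not with probe sets averaged (adjusted p = 0.0738). The array labelled epithelial was higher than the epithelial line (log2 difference 1.60, SE 0.29, adjusted p = 0.0144).

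Pfkfb4, an enzyme that makes and breaks the phosphofructokinase activator, read 5.70, 5.43, 5.52 and 5.22 in tumours, 7.11, 6.84 and 6.62 in the epithelial line, 6.67, 7.05, 6.13 and 6.98 in the fibroblastic line and 6.48 and 6.61 in co-culture. Tumours were below the epithelial line (log2 difference -1.39, SE 0.22, adjusted p = 0.00063) and the fibroblastic line (log2 difference -1.24, SE 0.21, adjusted p = 0.00049), with the second probe set at 0.26 and 0.61. Both co-culture arrays lay inside the range of the fibroblastic line. Its relative Pfkfb3, the form linked to proliferation, averaged 9.17 ± 0.55 in the epithelial line (SD, n = 3) and 7.84 ± 0.32 in the fibroblastic line (SD, n = 4), with no overlap (log2 difference 1.32, SE 0.29, adjusted p = 0.00788). The array labelled fibroblastic was higher than its line (log2 difference 2.01, SE 0.42, adjusted p = 0.0245), but the other 2 probe sets gave 0.29 and -0.09 and the call was lost with probe sets averaged (adjusted p = 0.127).

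Gpi, the isomerase that follows hexokinase, was the upper glycolysis gene that passed the test in both co-culture comparisons. It averaged 11.15 ± 0.18 in the epithelial line (SD, n = 3) and 10.76 ± 0.20 in the fibroblastic line (SD, n = 4), and the co-culture arrays read 12.83 and 12.63. Both were above every other array, 3.19-fold over the epithelial line (log2 difference 1.68, SE 0.25, adjusted p = 0.00639) and 3.65-fold over the fibroblastic line (log2 difference 1.87, SE 0.24, adjusted p = 0.00309). Tpi1, triose phosphate isomerase, read 13.16 and 13.18 in co-culture against 11.82, 11.14, 11.74 and 11.45 in the fibroblastic line (log2 difference 1.64, SE 0.38, adjusted p = 0.0364), a call lost without epithelial array 2 or fibroblastic array 2, 3 or 4 (adjusted p up to 0.0765). Aldoa, the main aldolase, was higher on every epithelial array than in every tumour (log2 difference -0.59, SE 0.17, adjusted p = 0.013), a call lost without epithelial array 2 (adjusted p = 0.056) and after centring (0.0679).

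Aldoc, the brain-type aldolase, rested on 1 array in the epithelial line. It read 5.94, 8.75 and 5.93 there, 6.07, 5.78, 5.91 and 5.93 in the fibroblastic line, 6.85, 6.99, 7.17 and 6.90 in tumours and 8.73 and 8.61 in co-culture. Epithelial array 2 matched co-culture while the other 2 matched the fibroblastic line, and with it no difference was called in the main fit. With both co-culture arrays as 1 group they were higher than the fibroblastic line (adjusted p = 0.0211). Without epithelial array 2 the tumours were higher than both lines (adjusted p = 0.00039 and 3.8e-05). The main fit shares 1 estimate of the spread, so this array also widened tests that do not compare the epithelial line. Every tumour lay above every fibroblastic array, and limma called that difference with only these 2 groups fitted (log2 difference 1.05, adjusted p = 9.37e-05). The co-culture arrays lay above their lines by log2 differences of 1.86 and 2.69. Pfkp, the platelet-type phosphofructokinase subunit, spread from 7.53 to 10.32 in the epithelial line but only from 8.99 to 9.32 in the fibroblastic line. Its co-culture levels of 11.25 and 10.98 were above all other arrays without being called in the main fit, which shares the spread of both lines. Hk1, the housekeeping hexokinase, was called in no comparison, although without epithelial array 3 it was lower in tumours than in that line (adjusted p = 0.00372).

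In lower glycolysis the lines differed in Eno2 and Ldhb, both near the readings of absent cell types' markers in the epithelial line. Eno2, the neuronal enolase, read 4.87, 6.50 and 4.83 in the epithelial line and 11.20, 11.25, 10.52 and 11.16 in the fibroblastic line, higher in the latter with no overlap (log2 difference -5.63, SE 0.42, adjusted p = 2.39e-05). Tumours read 6.09, 6.23, 5.97 and 6.10, far below the fibroblastic line (log2 difference -4.93, SE 0.33, adjusted p = 7.39e-07) and within the range of the epithelial line. Co-culture read 12.17 and 11.62, above every other array, and the array labelled epithelial was above the epithelial line (log2 difference 6.77, SE 0.63, adjusted p = 0.000475).

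Ldhb, the lactate dehydrogenase subunit of oxidative tissue, read 4.93, 4.54 and 4.94 in the epithelial line and 10.40, 11.12, 10.30 and 10.96 in the fibroblastic line, higher in the latter with no overlap (log2 difference -5.89, SE 0.24, adjusted p = 9.3e-07). Tumours read 7.81, 6.98, 7.19 and 7.98, between the lines and apart from both (log2 difference 2.68, SE 0.28, adjusted p = 4.33e-05; against the fibroblastic line log2 difference -3.21, SE 0.26, adjusted p = 2.61e-06). Tumours 1 and 4 were the higher ones, and hepatocyte marker RNA was highest in the same tumours. The part of hepatocyte RNA in Ldhb was not tested. Co-culture read 7.03 and 8.01, also between the lines, so the array labelled epithelial was higher than its line (log2 difference 2.22, SE 0.36, adjusted p = 0.00933) and the array labelled fibroblastic lower (log2 difference -2.69, SE 0.35, adjusted p = 0.00307). Ldhb was the only gene of the 39 called lower in co-culture.

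Ldha, the subunit that favours lactate, ran the other way. It read 12.98, 12.80, 12.95 and 12.81 in tumours, 13.09, 13.16 and 12.85 in the epithelial line, 12.08, 11.53, 12.17 and 12.03 in the fibroblastic line and 13.51 and 13.50 in co-culture. The fibroblastic line was below the epithelial line (log2 difference 1.08, SE 0.19, adjusted p = 0.0029) and the tumours (log2 difference 0.93, SE 0.15, adjusted p = 0.000349) with no overlap. Both co-culture arrays were above all others, and the array labelled fibroblastic was called against its line (log2 difference 1.55, SE 0.28, adjusted p = 0.0128).

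Pgk1, the first ATP-making enzyme of glycolysis, read 12.92, 12.96, 13.15 and 12.95 in tumours, 13.03, 13.11 and 12.65 in the epithelial line, 12.34, 11.95, 12.55 and 12.18 in the fibroblastic line and 13.86 and 13.87 in co-culture. The co-culture arrays were nearly equal and above all others, 3.07-fold over the fibroblastic line (log2 difference 1.62, SE 0.28, adjusted p = 0.0114). Against the epithelial line the array labelled epithelial was not called (log2 difference 0.93, SE 0.29, adjusted p = 0.102), and both arrays as 1 group were (adjusted p = 0.0165). Tumours were above the fibroblastic line (log2 difference 0.74, SE 0.15, adjusted p = 0.00182). The epithelial line was too (log2 difference 0.67, SE 0.19, adjusted p = 0.0261), a call lost on leaving out epithelial arrays 1 or 2, or fibroblastic arrays 2 or 4, singly (adjusted p up to 0.0895). Of its 3 probe sets, another bright one gave larger differences of the same sign in both, 1.12 and 1.14. The last gave -0.10 and -0.01, but it read 3.26 to 3.70 on all 13 arrays, near the lowest value of the series (2.94).

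Eno1, the common enolase, and Pgam1, phosphoglycerate mutase, were both higher in the epithelial than in the fibroblastic line with no overlap, by 1.14 (SE 0.26, adjusted p = 0.00963) and 0.83 (SE 0.15, adjusted p = 0.00337). On the array labelled fibroblastic both were higher than in that line, by 1.65 (adjusted p = 0.0356) and 1.06 (adjusted p = 0.0248). Both calls were lost on leaving out single arrays, with adjusted p up to 0.0724 for Eno1 and 0.0543 for Pgam1, each without fibroblastic array 4. Pdk1, the kinase that keeps pyruvate out of mitochondria, averaged 7.86 ± 0.52 in the epithelial line (SD, n = 3) and 7.85 ± 0.43 in the fibroblastic line (SD, n = 4), and the co-culture arrays read 9.97 and 9.74. Both were above every other array and both were called (log2 difference 2.11, SE 0.47, adjusted p = 0.0351 for the array labelled epithelial; log2 difference 1.89, SE 0.45, adjusted p = 0.0413 for the other). The calls were lost on leaving out single arrays, with adjusted p up to 0.0835 without epithelial array 1 and 0.0825 without fibroblastic array 4.

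The genes for matrix, acid handling and secretion were all above both lines in co-culture. Car9, the cell surface carbonic anhydrase used as a hypoxia marker, read 10.04, 10.92, 10.86 and 9.69 in tumours, 7.99, 11.64 and 8.21 in the epithelial line, 11.49, 6.93, 10.89 and 8.13 in the fibroblastic line and 12.69 and 12.35 in co-culture. Arrays of the same line differed more than the groups did, with epithelial array 2 and fibroblastic arrays 1 and 3 high and the others low. The co-culture arrays were above all others, but the differences from the lines were not called (log2 difference 3.41, SE 1.96, adjusted p = 0.367 for the array labelled epithelial; log2 difference 2.99, SE 1.90, adjusted p = 0.444 for the other).

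Adm, adrenomedullin, a secreted vessel-dilating peptide, read 7.57, 7.46, 7.17 and 7.17 in tumours, 5.15, 7.31 and 8.67 in the epithelial line, 5.92, 7.70, 6.23 and 7.24 in the fibroblastic line and 9.94 and 10.32 in co-culture. The co-culture arrays were again above all others, over lines whose own arrays were widely spread. The array labelled fibroblastic was not called against its line (log2 difference 3.55, SE 1.16, adjusted p = 0.121), and both arrays as 1 group were called against the epithelial line (adjusted p = 0.0436) and the fibroblastic line (adjusted p = 0.0233).

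P4ha1 and P4ha2 encode the catalytic subunits of the enzyme that hydroxylates collagen. P4ha1 was higher in the fibroblastic line, 11.95, 11.27, 11.71 and 11.01, than in the epithelial line, 10.28, 10.53 and 8.82, with no overlap (log2 difference -1.61, SE 0.42, adjusted p = 0.0186), and read 12.18 and 12.26 in co-culture. P4ha2 averaged 8.56 ± 0.24 in the epithelial line (SD, n = 3) and 9.40 ± 0.41 in the fibroblastic line (SD, n = 4), and read 11.17 and 11.21 in co-culture. It was higher in co-culture than in either line, by 6.11-fold for the array labelled epithelial (log2 difference 2.61, SE 0.37, adjusted p = 0.00453) and 3.52-fold for the other (log2 difference 1.81, SE 0.36, adjusted p = 0.0185). The P4ha2 difference between the lines was lost on leaving out epithelial arrays 2 or 3, or fibroblastic arrays 1 or 3, singly (adjusted p up to 0.097), and its second probe set had the opposite sign (0.23).

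**Figure D4:**
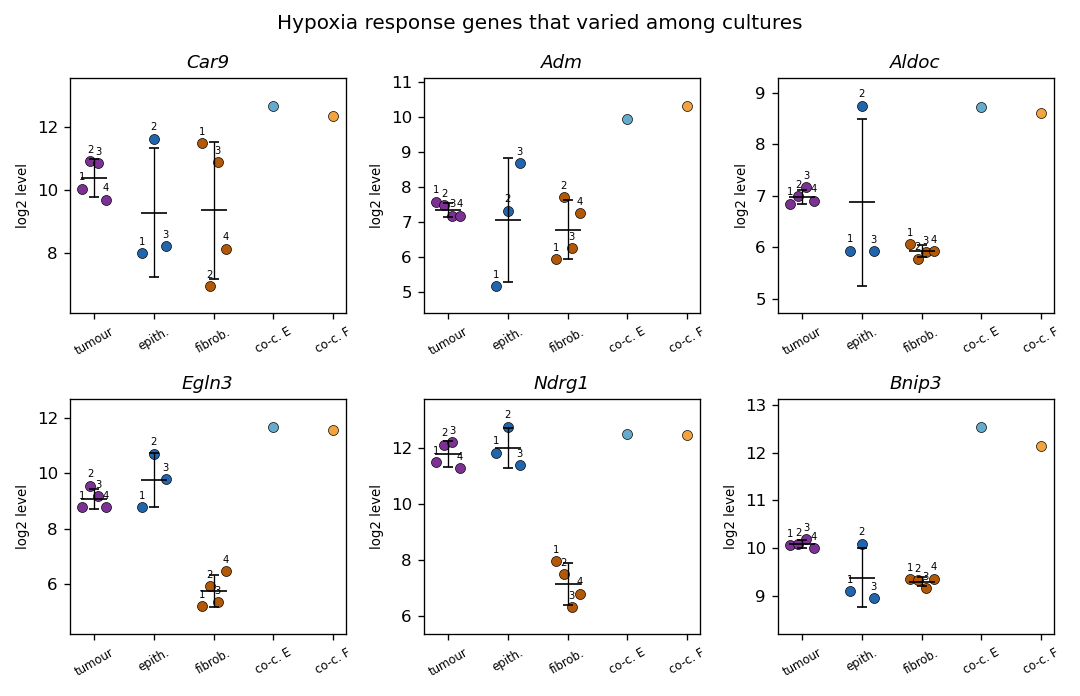
Each panel is a gene and each point an array, with log2 level on the vertical axis and groups on the horizontal axis (co-c. E and co-c. F are the co-culture arrays labelled epithelial and fibroblastic). Bars are the mean and 1 SD over 4 tumours, 3 epithelial and 4 fibroblastic arrays. Car9 runs from 6.93 to 11.49 within the fibroblastic line, Aldoc is high on epithelial array 2 alone among the line arrays, and Egln3 and Ndrg1 are low in the fibroblastic line.

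Arrays of the epithelial line differed from each other in these genes more than in others. Epithelial array 2 was the highest of its line in 28 of the 39 genes (71.8%, against 28.3% of all genes), and epithelial array 3 the lowest in 27 (69.2%, against 33% of all genes). The median SD within the epithelial line was 0.55 over the 39 genes and 0.23 over all genes. The fibroblastic line gave 0.34 against 0.24, and the tumours 0.22 against 0.18. Epithelial array 2 had the lowest proliferation marker mean of its line, 9.33 against 10.22 and 9.95, and the widest actin probe difference, 1.469. Its part in the results was not tested. Among tumours, array 3 was highest in 20 of the 39 genes (51.3%, against 26.4% of all genes), and arrays 1 and 4 were lowest in 15 and 18 (38.5% and 46.2%, against 36.1% and 22.6%).

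Whether co-culture differed from the 2 lines unequally was tested as the difference of the differences. It was called in 3 genes in the direction of the array labelled epithelial (4.66% of all genes) and in 1 in the other (3.76%, and 8.43% in either direction). The 3 were Eno2 (log2 difference 6.18, SE 0.88, adjusted p = 0.00385), Slc2a3 (log2 difference 5.25, SE 0.92, adjusted p = 0.0101) and Ldhb (log2 difference 4.91, SE 0.50, adjusted p = 0.00072), all higher in the fibroblastic line grown alone. The sizes of these 3 rest on epithelial readings near those of absent cell types' markers. The 1 was Ndrg1 (log2 difference -4.84, SE 0.96, adjusted p = 0.0181), higher in the epithelial line grown alone. Cell type markers showed the same pattern, with 8 of 10 fibroblast markers called in the direction of the array labelled epithelial and 8 of 10 epithelial markers in the other. For these genes a change within cells and the mixture of cells on an array cannot be told apart.

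Other genes of the pathway were counted in the same way. Their lists follow textbook membership but were also chosen with earlier results of these data known. Of 29 further HIF targets, 10 had both co-culture arrays above every line array (Vegfa, Plod1, Ero1a, Stc2, Mif, Ak4, Gys1, Gbe1, Insig2 and Errfi1), against 5.8% of all genes, and Fam162a had both below (8.85% of all genes). Against its line, the array labelled epithelial was higher in 10 of the 29 (4.87% of all genes) and lower in 0 (2.37%), led by the collagen-crosslinking genes Lox (log2 difference 7.15, SE 0.91, adjusted p = 0.00262) and Plod2 (log2 difference 7.09, SE 0.45, adjusted p = 6.06e-05). Both are also high in the fibroblastic line (-7.68 and -6.99 for epithelial against fibroblastic). On the array labelled fibroblastic 3 were higher (4.78% of all genes) and 0 lower (3.63%), led by Ero1a, an oxidase of the secretory pathway (log2 difference 3.74, SE 0.54, adjusted p = 0.00504), and Ak4, an adenylate kinase of mitochondria (log2 difference 1.69, SE 0.31, adjusted p = 0.0134).

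The HIF regulators outside the set were called once in co-culture. Of 10, 0 were above both lines on both co-culture arrays (5.8% of all genes) and 1, Egln2, was below both on both (8.85% of all genes). Both counts are near those shares. The HIF partner Arnt2 was called lower on the array labelled fibroblastic (log2 difference -2.17, SE 0.48, adjusted p = 0.0327), the only regulator called in either co-culture comparison, and it was high in the fibroblastic line alone (log2 difference -3.47, SE 0.33, adjusted p = 0.000106 for epithelial against fibroblastic). Vhl, which delivers hydroxylated HIF to destruction, was lower in the epithelial than in the fibroblastic line (log2 difference -1.02, SE 0.15, adjusted p = 0.0011), and tumours were below the fibroblastic line as well (log2 difference -1.21, SE 0.13, adjusted p = 1.8e-05). Arnt, the common partner, was higher in tumours than in either line (log2 difference 0.75, SE 0.15, adjusted p = 0.00187; against the fibroblastic line log2 difference 1.28, SE 0.14, adjusted p = 2.06e-05).

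Neighbouring carbon pathways were counted against the same shares of all genes. On the array labelled epithelial these were 4.87% called higher and 2.37% lower, and on the array labelled fibroblastic 4.78% higher and 3.63% lower. Of 22 genes of pyruvate oxidation and the TCA cycle, 0 had both co-culture arrays above every line array (5.8% of all genes) and 3 had both below (8.85%), among them citrate synthase Cs and the succinate dehydrogenase subunit Sdhc. The test called 1 lower on the array labelled epithelial (Pdp2, log2 difference -1.08, SE 0.24, adjusted p = 0.034) and 1 higher on the array labelled fibroblastic (Pdk3, log2 difference 1.24, SE 0.19, adjusted p = 0.00621). Both single calls are near those shares. On the array labelled epithelial 21 of the 22 differences were negative (8268 of 14217 over all genes), with a median of -0.32 (-0.09 over all genes). Between the lines grown alone, 18 of the 22 differences were positive, higher in the epithelial line (8440 of 14217 over all genes). Their median was 0.49 (0.11 over all genes), and this co-culture array also held fibroblast markers. A change within cells and the mixture of cells cannot be told apart here. Of 7 genes of the pentose phosphate pathway, H6pd was above both lines on both co-culture arrays (5.8% of all genes) and Pgls below (8.85%). There the array labelled epithelial was lower in 1, Pgls (log2 difference -1.21, SE 0.26, adjusted p = 0.0332), and the array labelled fibroblastic higher in 2 (4.78% of all genes), H6pd (log2 difference 2.27, SE 0.33, adjusted p = 0.00519) and Tkt (log2 difference 0.98, SE 0.19, adjusted p = 0.0161). Of 10 other glycolysis isoenzymes limma called 0 in either co-culture comparison, and 0 passed an unadjusted p under 0.05, and of 6 gluconeogenesis genes 1 was, Fbp2 on the array labelled fibroblastic (log2 difference 1.55, SE 0.38, adjusted p = 0.0472). The epithelial line was higher than the fibroblastic line in 6 of those 7 (20.9% of all genes), led by Tkt (log2 difference 1.68, SE 0.13, adjusted p = 2.69e-05) and Rpia (log2 difference 1.60, SE 0.26, adjusted p = 0.00204), and in 9 of the 22 oxidation genes, led by Pdk3 (log2 difference 1.09, SE 0.13, adjusted p = 0.000368) and Pdp2 (log2 difference 0.98, SE 0.16, adjusted p = 0.00189), with 0 lower in either list (16.6% of all genes).

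Several further genes that were higher in tumours are known from liver. Against the epithelial line, 2 of 6 gluconeogenesis genes were higher (18.9% of all genes) and 2 lower (33.2% of all genes). The higher were Pck1 (log2 difference 5.19, SE 1.29, adjusted p = 0.00684) and Fbp1 (log2 difference 4.50, SE 1.12, adjusted p = 0.00698). Also higher were the liver pyruvate kinase Pklr (log2 difference 2.81, SE 0.62, adjusted p = 0.00356) and the liver glucose transporter Slc2a2 (log2 difference 4.49, SE 1.41, adjusted p = 0.0211), whose groups overlapped. Hepatocyte markers were high in tumours 1, 3 and 4, as given above, and their part in these differences was not tested. The crosslinker Lox (log2 difference 6.05, SE 0.54, adjusted p = 1.39e-05) and the glycogen branching enzyme Gbe1 (log2 difference 5.59, SE 0.72, adjusted p = 0.000152) were higher in tumours than in the epithelial line too, and Ier3, an early response gene (log2 difference -1.93, SE 0.33, adjusted p = 0.00093), and the vasoconstrictor Edn1 (log2 difference -1.64, SE 0.51, adjusted p = 0.0211) lower. Of the 29 further HIF targets, 10 were higher (18.9% of all genes) and 9 lower (33.2%) in tumours than in the epithelial line. Against the fibroblastic line 6 were higher (27.3% of all genes) and 14 lower (33.5%). The 9 lower are near the share of all genes, and the 6 higher below it.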

How the data were processed

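Total RNA of 13 samples was hybridised in 1 colour to Affymetrix rat arrays. The authors deposited log2 values from RMA (background correction, quantile normalization and probe summary), per the submitters' processing notes. The log2 scale was read from the values (2.94 to 14.69). Which RMA version was used, and on which set of arrays, is not stated in the labels. Of 31099 probe sets, 20826 named 1 gene in the platform annotation, 436 several and 9780 none. Array medians were 6.15 to 6.25. Arrays have no counting depth, so their number limits precision.

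One probe set per gene, that with the highest mean over 13 arrays, left 14217 genes. limma 3.58.1 (R 4.3.3) fitted group means, to 9 arrays for cultures and co-cultures and to 11 for tumours and lines, with two-sided moderated tests and Benjamini-Hochberg adjustment, called under 0.05. The fit was tested on simulated data. Values per array were given for the 8 called genes with the largest difference in each comparison of replicated groups, the 5 largest in each co-culture comparison, and Hif1a, Epas1, Egln3, Car9, Slc2a1, Ldha, Pgk1, Bnip3 and Adm; the rest appear by role, and other lists by up to 2 called genes each way. Members and lists were chosen with earlier results of these data known. Alternatives were other normalization, filters, probe-set averaging, a trend, a replicate block, single arrays left out, and, added after the data were seen, fibroblastic arrays 2 and 4 left out, tumour 2 alone and the co-culture arrays as 1 group.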

Additional observations from a re-analysis of the deposited data

Results flagged for a closer look

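A single array stood apart from the rest of its group in 6 of 78 gene and group combinations examined, where chance marks about 1 in 20. Slc2a3 read 5.83 in tumour 1, against 6.38 to 6.47 in the other tumours. Slc16a1 was 9.35 in tumour 4, against 9.76 to 9.82. Gpi was 10.69 in tumour 1, against 10.91 to 10.93. Eno1 was 12.98 in tumour 3, against 12.54 to 12.57. In the fibroblastic line array 3 was the one apart, with Aldoa at 12.72 against 13.02 to 13.07 and Eno2 at 10.52 against 11.16 to 11.25.

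Co-culture differed from the lines unequally for 4 genes in limma's test of the difference in differences. Eno2 gave 6.18 (adjusted p = 0.00385), Slc2a3 5.25 (adjusted p = 0.0101), Ldhb 4.91 (adjusted p = 0.00072) and Ndrg1 -4.84 (adjusted p = 0.0181). Each rests on 1 co-culture array per label, and for Eno2, Slc2a3 and Ldhb the epithelial line alone read about as low as markers of absent cell types. In the same order, the epithelial line minus the fibroblastic line gave -5.63, -4.95, -5.89 and 4.87, near these values with the sign turned. Both co-culture arrays held markers of both lines. A change within cells and the mixture of cells on an array cannot be told apart for these genes.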

How the results depend on the processing

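Over 74 gene and comparison pairs, 1358 alternative values kept direction and side of the threshold, 42 lost the call, 17 gained it and 24 changed sign. The counts of the 39 genes called moved beyond 1.5 times as follows. Tumours against the epithelial line gave 4 with tumour 2 as the only tumour and 7 either at an adjusted p under 0.01 or at 2-fold, and against the fibroblastic line 10 with tumour 2 alone and 14 at 2-fold. The array labelled epithelial gave 14 with both co-culture arrays as 1 group, the array labelled fibroblastic 6 at 0.01, and the difference in response 2 at 0.01. Over all genes the lines gave 3391 at 0.01 and 3310 at 2-fold. Tumours gave 1958, 4878 and 3465 against the epithelial line (tumour 2 alone, 0.01, 2-fold) and 3912 and 4343 against the fibroblastic line (tumour 2 alone, 2-fold). The array labelled epithelial gave 1743 in 1 fit of all 13 arrays, 2612 as 1 group and 453 at 0.01, the array labelled fibroblastic 2845 as 1 group and 532 at 0.01, and the difference in response 632 at 0.01. Stricter limits account by construction for the counts at 0.01 and at 2-fold. With tumour 2 alone there were fewer arrays, and this tumour also had the least hepatocyte marker RNA (5.69 against 11.94 to 13.53). The parts of array number and tissue make-up cannot be told apart there. The cause of the other moved counts was not tested.

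Leaving out single arrays gave 18 to 22 genes called between the lines (4431 to 4985 over all genes), 12 to 15 for tumours against the epithelial line (5991 to 7569), 19 to 25 against the fibroblastic line (7717 to 8703), 7 to 9 for the array labelled epithelial (740 to 950), 10 to 17 for the array labelled fibroblastic (877 to 1095) and 4 to 5 for the difference in response (989 to 1190). Both co-culture arrays were above both lines in 20 to 28.

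Values that changed sign were all uncalled in the main setting. Between the lines, leaving out single arrays moved Car9 from -1.26 to 0.63, Bnip3 from -0.28 to 0.30 and Adm from -0.54 to 1.22, and Hif1a was 0.13 without fibroblastic arrays 2 and 4. For tumours against the epithelial line they were Hif1a 0.13 (quantile), 0.09 (centred), 0.03 (tumour 2 alone) and -0.22 to 0.09 (single arrays left out), Ldha 0.05 (centred), Pgk1 -0.02 (probe sets averaged) and -0.08 to 0.15 (single arrays left out), and Adm -0.65 to 1.11 (single arrays left out). Against the fibroblastic line they were Hif1a 0.02 and Car9 -0.81 without fibroblastic arrays 2 and 4. In co-culture they were Epas1 -0.49 to 1.02 (single arrays left out) and -0.27 (1 group) for the array labelled epithelial, and Hif1a -0.02 to 0.24 (single arrays left out) and Epas1 0.07 and 0.49 (without fibroblastic arrays 2 and 4, 1 group) for the other.

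Replicate numbers did not pair the samples, with correlations of same-numbered deviations from -0.148 to 0.143. With the replicate block the counts were 22, 14, 23, 8, 16 and 5, in the order of the comparisons above. Under it Pdk1 was not called for the array labelled fibroblastic (adjusted p = 0.0504). With 1 co-culture array per label and 3 or 4 per line, many differences larger than the spread within a line were also missed. In simulated data a log2 difference of 2 was recovered for 57 and 56 of 100 genes in the co-culture comparisons. In the difference in response it was recovered for 23. A log2 difference of 1 was recovered for 8, 8 and 0 of 100. A gene not called in co-culture is therefore not shown to be unchanged.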
